A study of Mus musculus with 6 samples.

Results

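The genes described here are 42 genes of glycolysis and of the response to low oxygen, followed in primary mouse keratinocytes. They were taken by name from a list of glycolytic enzymes, sugar and lactate carriers, oxygen sensors and hypoxia-inducible genes, and a gene was kept where the array had a row annotated with its symbol alone. Of the 42, 39 had such a row, out of 19935 genes measured in all. Gpi1, Eno1 and Gapdh were not analysed as members. In 3 cultures, wild type keratinocytes of the CD1 strain were infected with a retrovirus encoding caNFATc1, a human NFATc1 with mutations in its autoinhibitory domain that make it constitutively active. In 3 control cultures, keratinocytes of the same strain and genotype were infected with a virus made from the empty MSCV vector. All cultures were grown in low-calcium medium, and each gave total RNA for 1 single-colour array. The sources used here do not give the age of the mice, the share of infected cells, the time after infection or the oxygen level of the cultures.

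Glycolysis splits glucose into pyruvate in a chain of cytosolic steps, and lactate dehydrogenase can turn the pyruvate into lactate, which leaves the cell through monocarboxylate transporters. In low oxygen the prolyl hydroxylases of the EGLN family no longer mark the HIF alpha subunits for destruction. HIF then binds short promoter motifs and raises many glycolytic enzymes together with genes for blood vessel growth, mitochondrial clearance and collagen modification. The epidermis has no blood vessels of its own and is known as a mildly hypoxic tissue in which keratinocytes use glycolysis. NFATc1 is a transcription factor normally held in the cytoplasm until calcineurin, a calcium-dependent phosphatase, releases it to the nucleus. The comparison asks which of these transcripts differ when NFATc1 is active without that signal.

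The core of the HIF motif is ACGTG or GCGTG, and promoter windows from 250 bases before to 50 bases after the start site were searched for both on both strands. Sequences are from RefSeq, build GRCm38.p6. A palindromic CACGTG counts as 2 overlapping matches. The 5 windows below are shown because they set 3 genes that rose (Bnip3, P4ha1 and P4ha2) beside 1 that did not pass the test (Ldha, the first of its 2 start sites) and 1 that fell (Slc16a1). Each is printed 5′ to 3′ on the gene's own strand, with the matches in capitals. They lie at chr7:138909457-138909756 (minus strand) for Bnip3, chr10:59323046-59323345 (plus) for P4ha1, chr11:54100674-54100973 (plus) for P4ha2, chr7:46845554-46845853 (plus) for Ldha and chr3:104638414-104638713 (plus) for Slc16a1.
Bnip3: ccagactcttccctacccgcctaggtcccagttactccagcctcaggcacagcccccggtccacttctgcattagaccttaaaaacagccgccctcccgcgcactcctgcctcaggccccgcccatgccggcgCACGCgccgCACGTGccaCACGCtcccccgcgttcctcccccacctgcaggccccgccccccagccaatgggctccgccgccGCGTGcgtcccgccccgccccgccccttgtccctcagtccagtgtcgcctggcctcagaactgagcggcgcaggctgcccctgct
P4ha1: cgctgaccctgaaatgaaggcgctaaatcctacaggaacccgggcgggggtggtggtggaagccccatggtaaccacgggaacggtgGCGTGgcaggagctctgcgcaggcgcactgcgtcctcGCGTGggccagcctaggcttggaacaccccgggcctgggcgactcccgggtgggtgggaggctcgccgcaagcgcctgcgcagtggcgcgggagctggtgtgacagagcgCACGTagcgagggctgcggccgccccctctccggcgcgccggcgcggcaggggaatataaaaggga
P4ha2: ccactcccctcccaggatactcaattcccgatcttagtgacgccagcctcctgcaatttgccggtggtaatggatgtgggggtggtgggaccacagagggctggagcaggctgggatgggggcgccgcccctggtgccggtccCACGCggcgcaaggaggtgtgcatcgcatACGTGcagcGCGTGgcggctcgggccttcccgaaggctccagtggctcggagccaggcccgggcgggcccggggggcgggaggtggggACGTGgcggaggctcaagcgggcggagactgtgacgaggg
Ldha: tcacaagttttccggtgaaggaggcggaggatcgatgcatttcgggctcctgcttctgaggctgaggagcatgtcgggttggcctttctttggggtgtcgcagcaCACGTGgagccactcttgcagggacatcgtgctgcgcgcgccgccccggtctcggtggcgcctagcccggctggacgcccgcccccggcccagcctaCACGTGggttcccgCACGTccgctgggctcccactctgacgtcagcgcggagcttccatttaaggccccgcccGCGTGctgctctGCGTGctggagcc
Slc16a1: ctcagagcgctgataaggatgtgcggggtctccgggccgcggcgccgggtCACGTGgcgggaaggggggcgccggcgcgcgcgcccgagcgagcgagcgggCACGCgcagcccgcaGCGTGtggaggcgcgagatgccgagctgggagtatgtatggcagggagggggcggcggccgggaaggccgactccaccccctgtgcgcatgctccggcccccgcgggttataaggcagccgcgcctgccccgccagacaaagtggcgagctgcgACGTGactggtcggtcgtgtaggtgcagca

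The Bnip3 window held 5 matches, P4ha1 3, P4ha2 4, Ldha 7 and Slc16a1 5, so matches stood in windows of genes that rose, that fell and that did not pass. Of 51 windows of the 37 members with an entry, 42 (82.4%) held either core, against 43.8% of all 32851 windows. By role, the share was 75.0% of 28 windows of glycolytic enzymes and 90.9% of 11 windows of the hypoxia-inducible genes outside glycolysis. These windows belong to 17 and 10 genes, so a gene with several start sites counts more than once. Windows of Gpi1, Eno1 and Gapdh, which had no row of their own, are included. The core of the NFAT motif, GGAAA, searched in the same way on both strands, was in 54.9% of the member windows and in 61.3% of all windows. Both HIF cores contain CG, and the windows compared were not matched for base content, so these shares are no test of HIF binding. A match in a window is a description of its letters, and several start sites of 1 gene can share bases. Slc2a3, Epas1, Bnip3l, Ndrg1 and Plod2 had no promoter window among the sequences used, so their promoters were not searched.

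All values below are log2 differences, caNFATc1 minus vector control, or log2 values on an array set to 0 at the row's median over the 6 arrays. The median-centred values keep differences between arrays but not levels, so no gene is called strong or weak, a row without signal cannot be told from an unchanged gene, and the keratinocyte markers cannot be checked for presence. In RNA of whole cultures, fewer cells of a type and less RNA per cell cannot be told apart. Same-numbered arrays of the 2 groups deviated together, with correlations across genes between 0.57 and 0.71, against -0.60 to 0.18 for arrays of different numbers. Deviations were taken from each group's own mean, so high correlations for same numbers lower those for different numbers by construction. The contrast was defined as paired, so the replicate number entered the fit as a block. Adjusted p-values are from that limma fit over all 19935 genes unless stated. Rcan1, a known NFAT target, was higher by 3.61, 3.12 and 3.40 in pairs 1, 2 and 3. Replicate 1 stood apart in both groups: Xist, the RNA of the inactive X chromosome, was at -6.05 in its caNFATc1 array and -6.00 in its vector array, against -0.04 to 0.18 on the other 4. The Y-linked gene Eif2s3y was at 3.77 in the caNFATc1 array and 3.00 in the vector array of replicate 1, against -0.08 to 0.01 on the other 4.

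Of 13 hypoxia-inducible genes outside glycolysis 7 rose in caNFATc1 cells and 0 fell, beside 3.73% of all genes that rose and 2.38% that fell (6.11% called in all). Without the replicate block limma called 0 of the 13, and with the replicate number as a random block 1. Of 14 measured glycolytic enzymes 1 rose and 0 fell, and 0 were called without the block or with the random block. At an unadjusted p under 0.05, 9 of the 13 genes differed, each upward, and 7 of the 14 enzymes, of which Ldhb was lower, beside 4287 of 19935 genes. The difference was positive in all 3 pairs for 10 of the 13 genes and for 9 of the 14 enzymes, against 21.6% of all genes. The median difference was 0.47 for the 13 genes and 0.16 for the enzymes, against -0.01 over all genes. In pairs 1, 2 and 3 it was 0.51, 0.45 and 0.55 for the 13 genes, and 0.09, 0.13 and 0.19 for the enzymes. Taken with the carriers, regulators, HIF factors and sensors, the 25 members outside the enzyme list had a median of 0.19. Of these 25, 7 rose and 1 fell, with 0 called without the block and 1 with the random block. The 42 further HIF pathway genes and hypoxia targets given below had a median of 0.09, lower than that of the enzymes. The difference of the enzymes from the 13 or the 25 genes was not tested, and the lists were chosen with earlier results of these data known.

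Over all 39 members 8 rose and 1 fell. The calls rest on the pairing. Without the replicate block limma called 0 of the 39 members (lowest adjusted p 0.140, 7 at an unadjusted p under 0.05), beside 0.216% of all genes. With the replicate number as a random block it called Vegfa alone among the members (adjusted p = 0.042). The difference was positive in all 3 pairs for 23 members and negative in all 3 for 5, against 21.3%. The 2 groups of arrays did not overlap for 6 members higher in caNFATc1 cells and 1 lower, against 9.64% and 9.09% of all genes.

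**Figure D1:**
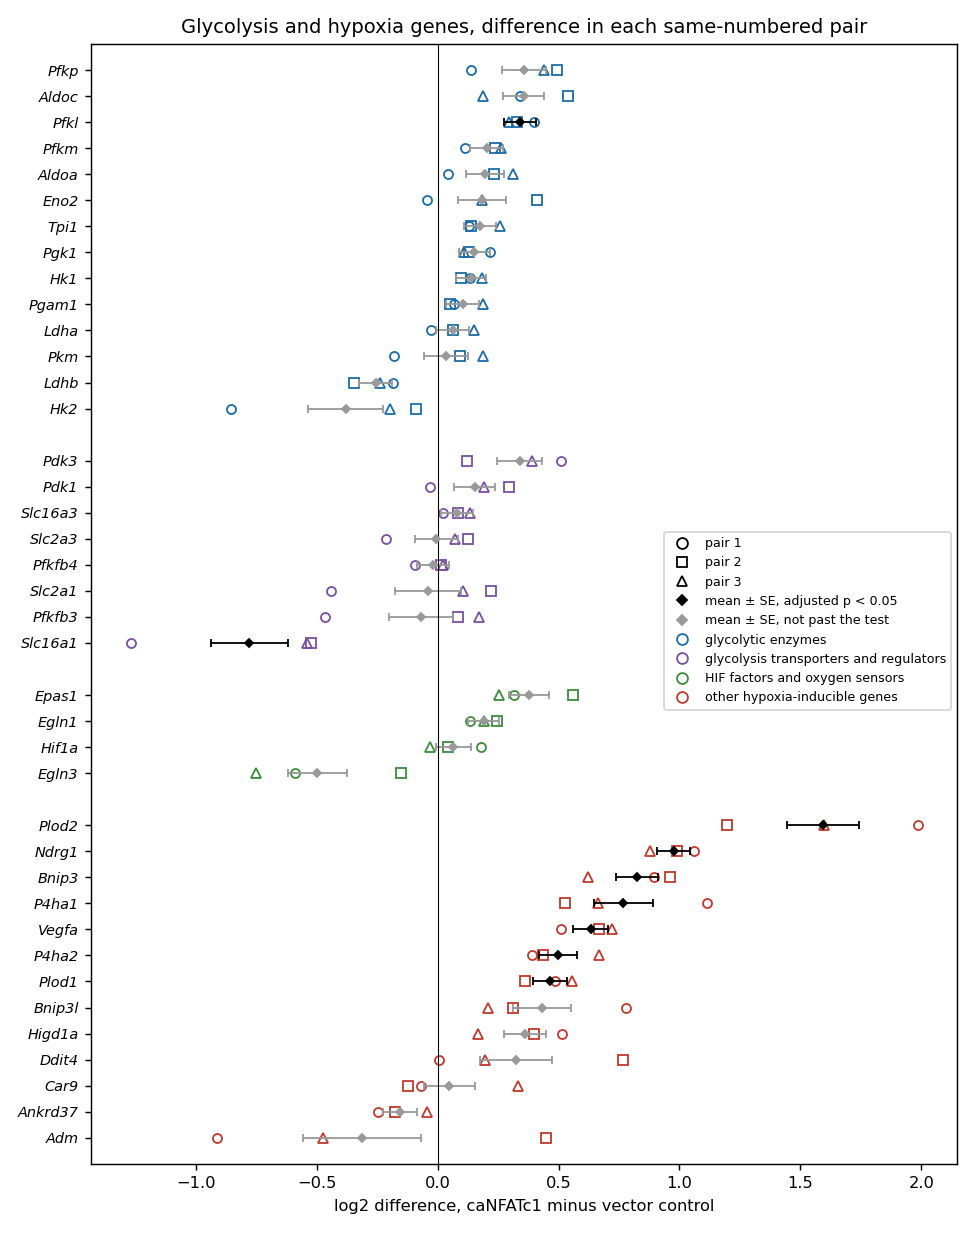
Log2 difference (caNFATc1 minus vector control, x axis) of each of the 39 members (y axis), by role, with open symbols for the 3 same-numbered pairs and a diamond for the mean with its SE in the fit with the replicate block (black where the adjusted p was under 0.05). The 7 black diamonds in the bottom group lie between 0.47 and 1.59, while the glycolytic enzymes other than Hk2 lie within 0.36 of 0.

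**Figure D2:**
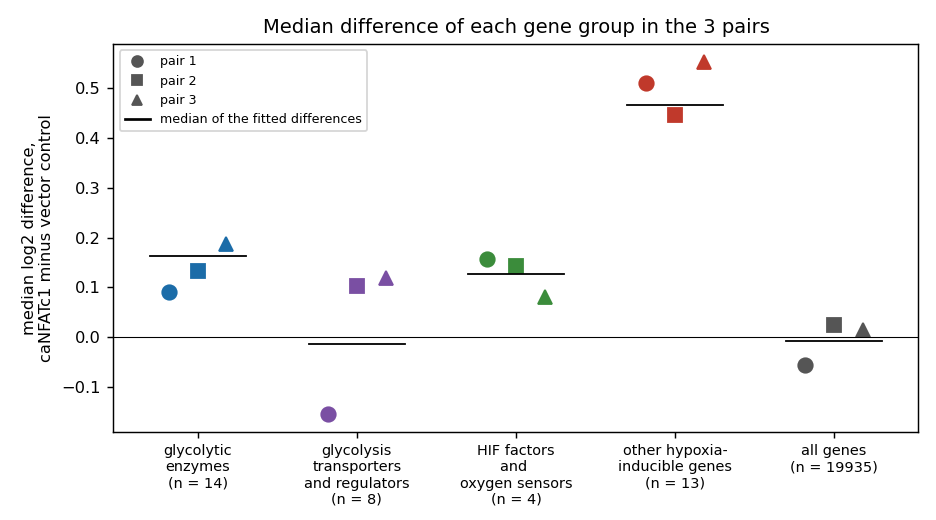
Median log2 difference (y axis) of each role group and of all genes, with a symbol for each pair and a line for the median of the fitted differences. The hypoxia-inducible genes outside glycolysis lie between 0.45 and 0.55 in the 3 pairs, above each of the other groups.

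The 4 collagen-modifying enzymes among the members, P4ha1, P4ha2, Plod1 and Plod2, rose. With the replicate number as a random block limma called 0 of the 4 (adjusted p between 0.0845 and 0.283), and without a block 0. Of 3 further genes of this machinery, Plod3, P4ha3 and P4hb differed by 0.39 ± 0.11, 0.68 ± 0.27 and 0.13 ± 0.07 and did not pass (adjusted p = 0.106, 0.231 and 0.404). The fibroblast marker Col3a1, itself a collagen gene, rose by 1.20 ± 0.19 (adjusted p = 0.0296, 0.108 without the block), while Col1a1 and Col1a2 differed by 0.48 and 0.05 and did not pass. Whether fibroblast markers have a part in these differences was not tested. P4ha1 and P4ha2 encode catalytic subunits of prolyl 4-hydroxylase, which stabilises the collagen helix, and Plod1 and Plod2 encode lysyl hydroxylases, which prepare collagen for cross-linking. Plod2 was at -0.14, 1.19 and 1.61 in caNFATc1 replicates 1, 2 and 3, against -2.13, -0.01 and 0.01 in the vector controls. The groups overlapped, with replicate 1 low in both, and caNFATc1 was higher by 1.99, 1.20 and 1.60 within the pairs. Plod2 rose 3.02-fold (log2 difference 1.59 ± 0.15 SE, n = 3 pairs, adjusted p = 0.0086, and 0.442 without the block), the largest change among the 39 members. P4ha1 was at 0.01, 0.28 and 0.65 in caNFATc1 cells and at -1.10, -0.24 and -0.01 in vector controls. Its groups did not overlap, although the lowest caNFATc1 array and the highest vector array almost touched. P4ha1 rose 1.70-fold (0.77 ± 0.12, adjusted p = 0.0293, and 0.390 without the block).

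P4ha2 and Plod1 moved by less. P4ha2 was at 0.12, 0.10 and 0.57 in caNFATc1 cells and at -0.27, -0.34 and -0.10 in vector controls, with no overlap. It rose 1.41-fold (0.50 ± 0.08, adjusted p = 0.0297, 0.238 without the block), a call lost without replicate 2 (0.0719) or 3 (0.068). Plod1 was at -0.22, 0.38 and 0.54 in caNFATc1 cells and at -0.70, 0.02 and -0.02 in vector controls. The caNFATc1 array of replicate 1 lay below 2 vector arrays, and the 3 pairs differed by 0.48, 0.36 and 0.55. Plod1 rose 1.38-fold (0.47 ± 0.07, adjusted p = 0.0264, 0.564 without the block), a call lost without replicate 1, 2 or 3 (0.0604, 0.0532 and 0.0672).

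Among the genes of mitochondrial clearance, Bnip3 rose. BNIP3 and BNIP3L are outer mitochondrial membrane proteins that mark mitochondria for autophagy. Bnip3 was at 0.06, 0.77 and 0.56 in caNFATc1 cells and at -0.83, -0.19 and -0.06 in vector controls. All 3 caNFATc1 arrays lay above all vector arrays, and its 2 rows differed by 0.87 and 0.78. Bnip3 rose 1.77-fold (0.83 ± 0.09, adjusted p = 0.0111, 0.272 without the block). Bnip3l was at 0.16, 0.14 and 0.11 in caNFATc1 cells and at -0.62, -0.17 and -0.11 in vector controls. Its groups did not overlap either, but the pairs were uneven (0.78, 0.31 and 0.21) and the difference of 0.43 ± 0.12 did not pass (adjusted p = 0.105).

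Ndrg1 and Vegfa also rose. NDRG1 is a stress- and differentiation-linked cytoplasmic protein, and VEGFA is the main growth factor for blood vessels. Ndrg1 was at 0.94, 0.12 and 0.20 in caNFATc1 cells and at -0.12, -0.87 and -0.67 in vector controls. The groups did not overlap, and here replicate 1 was the highest in both. Ndrg1 rose 1.97-fold (0.98 ± 0.07, adjusted p = 0.00596, 0.238 without the block), by 1.06, 0.99 and 0.88 in the pairs. Vegfa was at 0.38, 0.34 and 0.13 in caNFATc1 cells and at -0.13, -0.33 and -0.59 in vector controls. Again no arrays overlapped, and Vegfa rose 1.55-fold (0.63 ± 0.07, adjusted p = 0.0138, 0.140 without the block).

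The other 5 hypoxia-inducible genes did not pass. Higd1a, a mitochondrial inner membrane protein, was at -0.07, 0.11 and 0.26 in caNFATc1 cells and at -0.58, -0.29 and 0.09 in vector controls. Its groups overlapped and its difference was 0.36 ± 0.09 (adjusted p = 0.0744). Ddit4, an inhibitor of mTORC1 signalling, differed by 0.01, 0.77 and 0.20 in the pairs (adjusted p = 0.293). The vasodilator peptide gene Adm went in opposite directions, by -0.91, 0.45 and -0.48 (adjusted p = 0.558). Car9, a carbonic anhydrase often used as a marker of hypoxia, differed by 0.05 with a 95% interval from -0.21 to 0.31, and Ankrd37 by -0.16 with an interval from -0.33 to 0.02.

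**Figure D3:**
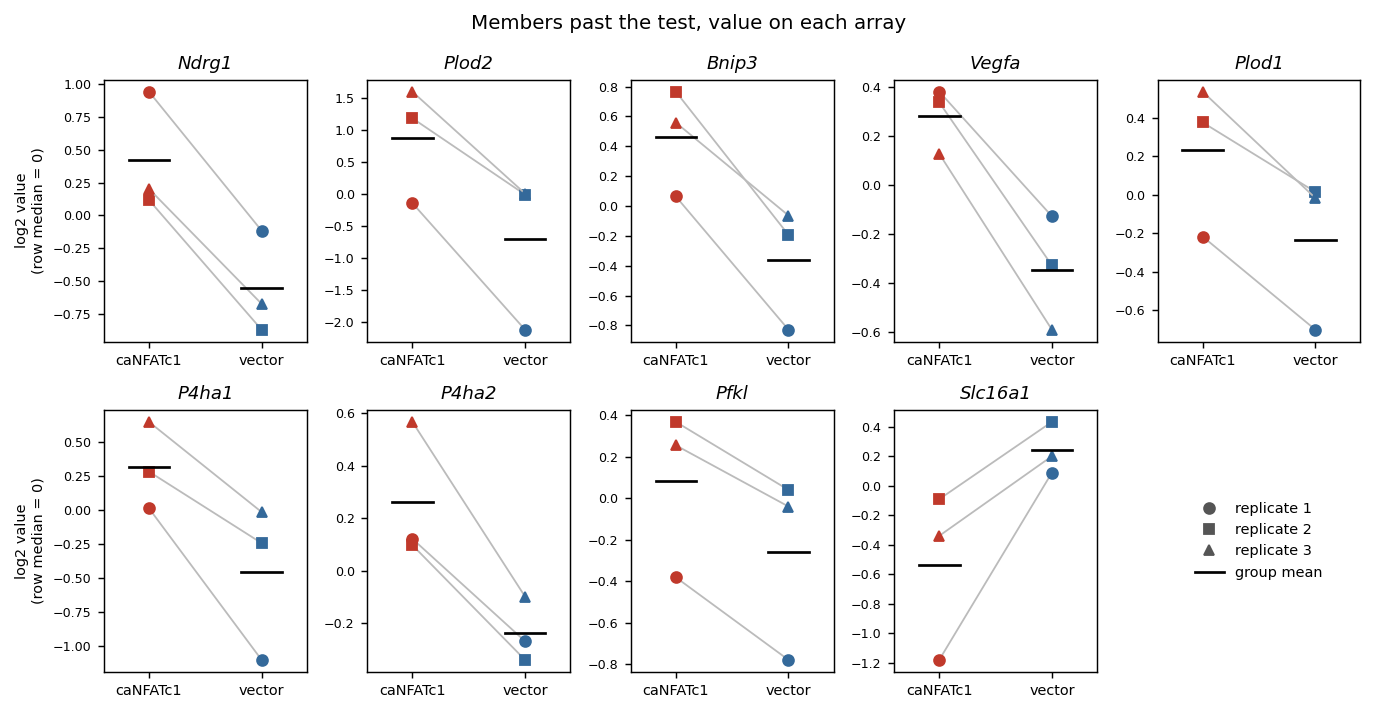
Log2 value relative to the row median (y axis) on each array for the 9 members past the test, caNFATc1 left and vector control right, with grey lines joining same-numbered arrays and black bars for group means. Every line runs down to the right for the 8 genes that rose and up for Slc16a1, and Plod2, Plod1 and Pfkl overlap between groups with replicate 1 low in both.

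Of the glycolytic enzymes 12 had a positive and 2 a negative difference, and Pfkl alone passed the test. Phosphofructokinase makes the committing step of the pathway, and its liver, muscle and platelet forms are encoded by Pfkl, Pfkm and Pfkp. Pfkl was at -0.38, 0.37 and 0.26 in caNFATc1 cells and at -0.78, 0.04 and -0.04 in vector controls. The groups overlapped through replicate 1, and the pairs differed evenly, by 0.40, 0.33 and 0.29. Pfkl rose 1.27-fold (0.34 ± 0.06, adjusted p = 0.0429, 0.719 without the block), a call lost without replicate 1, 2 or 3 (0.0885, 0.155 and 0.104). Pfkp and Pfkm were positive in every pair, with differences of 0.36 ± 0.09 and 0.20 ± 0.07, and did not pass (adjusted p = 0.083 and 0.156). Without replicate 1 Pfkp passed (0.0426).

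The hexokinases, which trap glucose in the cell, differed in sign. Hk2, the inducible form, differed by -0.86, -0.09 and -0.20 in the pairs and did not pass (-0.38 ± 0.15, adjusted p = 0.236). Hk1 differed by 0.14 ± 0.06 (0.296), and its 2 rows disagreed, with 0.35 on one and -0.08 on the other. Among the aldolases, which split the sugar, Aldoc was at -0.62, 0.44 and 0.28 in caNFATc1 cells and at -0.96, -0.09 and 0.09 in vector controls. The groups overlapped, and Aldoc differed by 0.36 ± 0.09 without passing (adjusted p = 0.0755). Aldoa, the ubiquitous form, differed by 0.20 ± 0.08 (0.227).

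The enzymes of the later steps had differences between -0.26 and 0.18. Tpi1, Pgk1, Pgam1 and Eno2, which encode the enzymes of triose interconversion, the first ATP-yielding step, phosphoglycerate shuffling and neuronal enolase, differed by between 0.10 and 0.18 with adjusted p between 0.205 and 0.473. The 3 rows of Pgk1 and the 3 of Pgam1 gave nearly the same values, so they may not be independent measurements. Pkm, the pyruvate kinase gene, differed by 0.03 with a 95% interval from -0.19 to 0.26. Ldha, which encodes the lactate-forming subunit of lactate dehydrogenase, differed by 0.06 with an interval from -0.11 to 0.23. Both intervals end below 0.47, the difference of Plod1, whose own interval was from 0.29 to 0.64. The intervals of the enzyme genes Pfkl, Aldoc and Pfkp reached above 0.47, to 0.50, 0.57 and 0.58. The value 0.47 belongs to a called gene of these same data, so setting intervals beside it is no test between the groups. Ldhb, the subunit of the reverse-favouring form, was lower in all 3 pairs (-0.19, -0.35 and -0.24) and did not pass (-0.26 ± 0.07, adjusted p = 0.0936). Gapdh had no row of its own. The 25 rows that name it together with copies differed by between -0.02 and 0.04.

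The carriers and regulators of glycolysis showed 1 change, a fall of Slc16a1. SLC16A1 (MCT1) moves lactate and pyruvate across the plasma membrane together with protons. Slc16a1 was at -1.18, -0.09 and -0.34 in caNFATc1 cells and at 0.09, 0.43 and 0.20 in vector controls. The groups did not overlap, and pair 1 differed most, by -1.27 against -0.52 and -0.54 in pairs 2 and 3. Slc16a1 fell by 0.78 ± 0.16 on the log2 scale, 0.583 times the control (adjusted p = 0.0498, 0.335 without the block). This call lies at the threshold and was lost without replicate 2 (0.0561), with a robust prior (0.0514), with the median of rows (0.0503) and with rows of several symbols added (0.0601). Slc16a3, which encodes the lactate exporter MCT4, differed by 0.08 with a 95% interval from -0.08 to 0.24.

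The glucose transporter genes Slc2a1 (GLUT1) and Slc2a3 (GLUT3) differed by -0.04 and -0.01, with 95% intervals from -0.38 to 0.30 and from -0.22 to 0.21. Slc2a1 was lower by 0.44 in pair 1 and higher by 0.22 and 0.10 in pairs 2 and 3. Pfkfb3 and Pfkfb4, whose products set the level of the activator of phosphofructokinase, differed by -0.07 and -0.02. The pyruvate dehydrogenase kinase genes Pdk1 and Pdk3, whose products keep pyruvate out of the mitochondrial cycle, differed by 0.15 ± 0.08 and 0.34 ± 0.09 and did not pass (adjusted p = 0.383 and 0.0991).

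The HIF subunits and their sensors did not pass. Hif1a differed by 0.06 with a 95% interval from -0.11 to 0.24. Epas1, which encodes HIF2 alpha, was at -0.14, 0.14 and 0.71 in caNFATc1 cells and at -0.46, -0.42 and 0.46 in vector controls. Replicate 3 was the highest in both groups, and Epas1 was higher by 0.32, 0.56 and 0.25 in the pairs (0.38 ± 0.08, adjusted p = 0.0607). Egln1, the main HIF prolyl hydroxylase gene, differed by 0.19 ± 0.06 (0.165). Egln3, a HIF-induced hydroxylase gene, went the other way, by -0.59, -0.15 and -0.75 (-0.50 ± 0.12, adjusted p = 0.0775), and passed without replicate 2 (0.03). The array measures RNA, and HIF alpha subunits are regulated largely at the level of protein.

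For several members the arrays differed by more between replicate numbers than between groups. Replicate 1 was the lowest array in both groups for 27 of the 39 members (69.2%), against 19.7% of all genes. It was so for 11 of the 14 glycolytic enzymes and 6 of the 13 hypoxia-inducible genes outside glycolysis. Slc16a3 was at -2.81 in the caNFATc1 array and -2.83 in the vector array of replicate 1, against 0.07 to 0.18 on the other caNFATc1 arrays and -0.07 to 0.09 on the other vector arrays. Egln3 was at -2.41 and -1.82 on the caNFATc1 and vector arrays of replicate 1, and at -0.08 and 0.14, against 0.08 and 0.89, in replicates 2 and 3. By the mean gap of replicate 1 to the other arrays, Slc16a3 ranked 10 from the lowest and Egln3 18 among 19935 genes, and Plod2 ranked 35.

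Ndrg1 and Pfkp went against this pattern, with replicate 1 higher than the mean of the other 2 by 0.78 and 0.40 in caNFATc1 cells and by 0.66 and 0.73 in vector controls. Vegfa and Pfkm also did, by 0.15 and 0.11 in caNFATc1 cells and by 0.33 and 0.25 in vector controls. Median gaps of replicate 1 were -0.42 in caNFATc1 cells and -0.25 in vector controls for the glycolytic enzymes, against -0.03 and 0.04 for all genes. The sex-linked genes Xist and Eif2s3y moved with replicate 1, as given above, and their part in these gaps was not tested. Without replicate 1 in both groups, 7 members rose and 1 fell. Of the 9 members called with all pairs 7 were among these, Pfkl and Plod1 were not, and Pfkp was added.

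**Figure D4:**
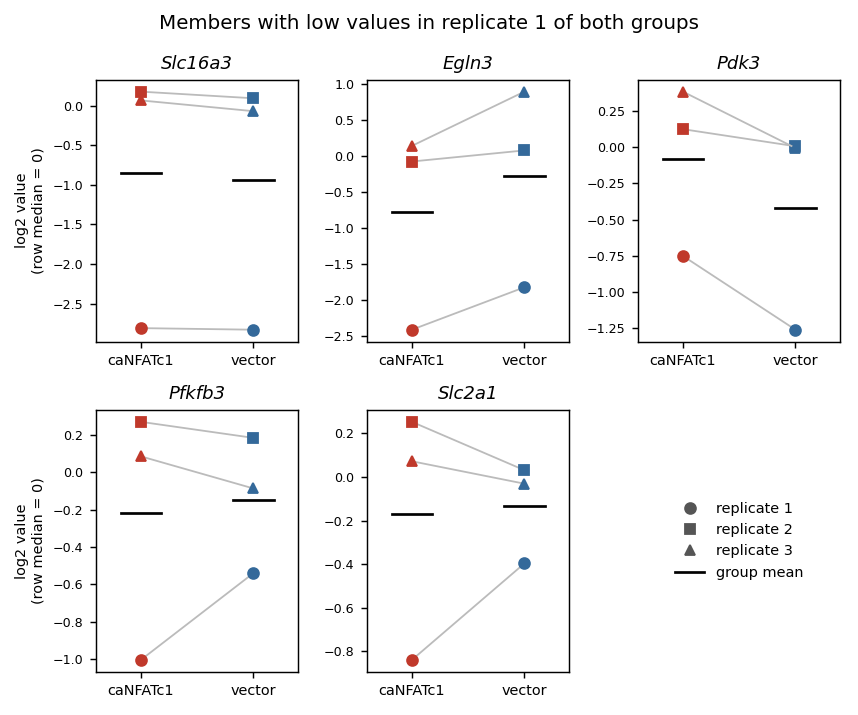
Log2 value relative to the row median (y axis) on each array for 5 members with low values in replicate 1, caNFATc1 left and vector control right, with grey lines joining same-numbered arrays and black bars for group means. The circles of replicate 1 lie below the other symbols in both groups, at about -2.8 for Slc16a3.

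Other HIF pathway genes and hypoxia targets gave a mixed picture. Of 42 further genes measured, 3 rose and 3 fell, beside 3.73% and 2.38% of all genes, and the median difference was 0.09. With the replicate number as a random block 0 rose and 1 fell, and without a block 0 were called (13 at an unadjusted p under 0.05). Bhlhe40, a clock-linked transcriptional repressor gene, rose by 1.08 ± 0.13 (adjusted p = 0.0155, 0.186 without the block), and the cyclin G2 gene Ccng2 and Narf rose by 0.60 ± 0.06 and 0.59 ± 0.07 (0.0116 and 0.0154, and 0.370 and 0.188 without the block). Car12, another carbonic anhydrase gene, fell by 0.94 ± 0.07 (0.00604, 0.155 without the block), the vasoconstrictor gene Edn1 fell by 1.05 ± 0.16 (0.0256, 0.316 without the block) and the transferrin receptor gene Tfrc fell by 0.66 ± 0.12 (0.0373, 0.239 without the block). Of 34 further genes of glycolysis, glycogen and pyruvate use, 2 rose and 0 fell, beside 3.73% and 2.38% of all genes, and the median difference was 0.065. With the random block limma called 1 of the 34, and without a block 0. In the fit with the replicate block 9 of the 34 had an unadjusted limma p under 0.05, beside 4287 of all 19935 genes. Pdk2, a pyruvate dehydrogenase kinase gene, was at 0.43, 0.47 and 0.71 in caNFATc1 cells and at -1.11, -1.09 and -0.43 in vector controls, without overlap, and rose 2.67-fold (1.42 ± 0.10, adjusted p = 0.00596, 0.0618 without the block). Pgm1, which links glycogen to glycolysis, rose by 0.57 ± 0.07 (0.0161, 0.382 without the block).

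Markers of cell types were compared between groups only. Of 9 keratinocyte markers 3 had a positive and 6 a negative difference, between -0.58 and 0.42, with a median of -0.05. In limma 3 of the 9 had an unadjusted p under 0.05 and 1 was called, beside 6.11% of all genes. The called gene Trp63, which encodes the epidermal regulator p63, rose by 0.42 ± 0.08 (adjusted p = 0.0444, 0.322 without the block). Krt5 and Krt14, keratins of the basal layer, differed by 0.03 and -0.02. Of 8 fibroblast markers measured 6 had a positive and 2 a negative difference, and the list's median was -0.05, 0.06 and 0.48 in pairs 1, 2 and 3. In limma 2 of the 8 had an unadjusted p under 0.05 and Col3a1 was called. With the replicate number as a random block 1 of the 8 was called. Of 7 melanocyte, 6 immune and 5 endothelial markers limma called 0, with 0 at an unadjusted p under 0.05.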

How the data were processed

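The authors deposited 1 table of log2 values, 28815 rows by 6 arrays. They were made with RMA, and the build was mm8, per the submitters' processing notes. The sources used here do not give the RMA software or any row filter. Every row's median was 0 within 1e-06, so levels are not kept. The base of the logarithm was taken as 2 because RMA gives log2 values. Rows were named through the platform annotation: 21780 carried 1 gene symbol, 1605 several and 5430 were not listed. Rows of a gene were averaged, giving 19935 genes. Of the 42 members 39 were measured, 8 of them by several rows.

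Group and replicate number were read from each title. The contrast was defined as paired by these numbers. The pairing was checked by a limit of 0.1 on the correlation of same-numbered deviations (lowest 0.57). The series design calls the replicates biological, without saying that equal numbers share a culture, so p-values cover the spread of these samples, which may be technical. limma 3.58.1 (R 4.3.3, lmFit and eBayes, 2-sided) was fitted to all genes with group and replicate number, with Benjamini-Hochberg adjusted p under 0.05 as the threshold. The script was tested on simulated data. Intervals are 95%. Members past the test, and the next by p up to 12, are given array by array. Of the wider lists, up to 4 called genes each were named by lowest p. Edn1 and Tfrc, and the array values of Bnip3l, Slc16a3, Egln3, Pdk2, Rpia and Idh2, were added after values were seen. The members and lists were chosen with earlier results of these data known.

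Alternatives were no block, a random block, each pair left out (leaving out 1 array gives the same difference as leaving out its pair), quantile normalization, the median of rows, rows of several symbols and a robust prior. The number of arrays limits the precision.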

Additional observations from a re-analysis of the deposited data

How the results depend on the processing

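The pairing decided the counts. Without the replicate block limma called 41 genes higher and 2 lower (2534 at an unadjusted p under 0.05), and 0 members higher or lower, with 0 of 14 glycolytic enzymes and 0 of 25 other members (7 of the 25 at an unadjusted p under 0.05, and 0 of the 14). With the random replicate block it called 314 and 119 genes, 1 member higher and 0 lower (1 lower at an unadjusted p under 0.05), with 0 glycolytic enzymes and 1 other member. Leaving out each pair gave 509 to 605 genes higher and 202 to 481 lower, 5 to 7 members higher and 1 lower, 0 to 1 glycolytic enzyme and 6 to 7 other members. The member called lower was Slc16a1 without replicate 1 or 3, but Egln3 without replicate 2. Under the median of rows, rows of several symbols added, and the robust prior, 0 members were lower (3 at an unadjusted p under 0.05 each time). Plod2, Ndrg1, Bnip3, Vegfa and P4ha1 were called whichever pair was left out. The medians of the 3 gene groups kept their sign in all 9 alternatives. They lay between 0.14 and 0.17 for the enzymes, 0.13 and 0.24 for the other 25 members and 0.43 and 0.52 for the 13 hypoxia-inducible genes. Dropping the block, a random block and a robust prior leave every difference as it was by construction, so they could not move these medians. Filters on dim rows, background correction and a slide block were not run, because the table keeps no brightness.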

Other observations

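In neighbouring carbon pathways limma called 1 gene in each of 2 lists, beside 6.11% of all genes. Of 8 measured genes of the pentose phosphate pathway 0 rose and 1 fell. Rpia, the ribose phosphate isomerase gene, was at -0.55, 0.06 and -0.13 in caNFATc1 cells and at -0.06, 0.39 and 0.41 in vector controls. The groups overlapped, and Rpia fell by 0.45 ± 0.07 (limma adjusted p = 0.0297 with the replicate block, 0.423 without). Of 20 measured genes of the TCA cycle 0 rose and 1 fell, with a median of -0.02. Idh2, the mitochondrial NADP-dependent isocitrate dehydrogenase gene, was at -0.40, -0.47 and -0.02 in caNFATc1 cells and at 0.30, 0.02 and 0.41 in vector controls. Its groups did not overlap, and Idh2 fell by 0.54 ± 0.08 (0.0241 with the block, 0.231 without). The cytosolic gene Idh1 differed by 0.65 ± 0.25 and did not pass (0.212). At an unadjusted p under 0.05 limma gave 2 genes in each of these 2 lists.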
